A study of Homo sapiens with 12 samples.

Results

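MOLM14 cells are an established human line grown from a monocytic acute myeloid leukemia, and a fusion of the KMT2A gene drives them. The RNA of MOLM14 cells exposed to all-trans retinoic acid (ATRA) was compared here with that of untreated cells. Of the 12 libraries of the study, 6 belong to this comparison: 3 from cells given 1 µM ATRA for 48 h and 3 from cells given nothing, stated to be biological replicates. The study also holds 3 libraries from cells given doxycycline (DOX, 50 ng/mL) and 3 from cells given DOX with ATRA, called the combined group below. Cells of every group, the untreated and ATRA groups included, carried a DOX-inducible shRNA to NRIP1, whose product RIP140 is a coregulator of nuclear receptors, and were grown in serum free of tetracycline. The shRNA was therefore present in both groups compared but its inducer was not, and all values come from this 1 cell line. The members of the comparison are these 6 libraries, and it is described across the 16104 genes that passed a filter on low counts.

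All-trans retinoic acid, a vitamin A derivative, enters the nucleus and binds retinoic acid receptors, which sit on DNA as pairs with retinoid X receptors. Without ligand the pair recruits corepressors; with ligand it exchanges them for coactivators and transcription of nearby genes rises. RIP140 is unusual in binding ligand-bound receptors while repressing transcription. ATRA is best known in myeloid leukemia for driving the maturation of acute promyelocytic leukemia cells, and cells with other lesions, monocytic ones among them, are exposed to it to ask how far they mature.

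Counts per library, in units of 1e6, were 10.37, 11.54 and 18.07 in untreated replicates 1 to 3 and 15.49, 9.51 and 10.03 in ATRA replicates 1 to 3. Both mitochondrial ribosomal RNA genes took 4.6% of the counts of untreated 3 and between 2.09% and 2.85% in the other 5 libraries. Levels are in CPM, counts per 1e6 counts after TMM scaling, so they serve to compare libraries for 1 gene and not genes with each other. Changes are log2 differences with a standard error from edgeR's quasi-likelihood fit over all 12 libraries, and a gene is called where its Benjamini-Hochberg adjusted p is under 0.05. Means are given with their SD, n = 3 per group. In bulk RNA a higher level may come from more RNA per cell or from more cells that hold the RNA, and these cannot be told apart here.

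The untreated cells held the RNA of myeloid and progenitor genes, which do not by themselves mark a monocytic cell. CD33, a myeloid surface antigen, was at 33.7, 36.9 and 40.8 CPM in untreated 1 to 3, the myeloid factor gene SPI1 at 178, 173 and 176, the receptor gene FLT3 at 265, 283 and 248 and the homeobox gene HOXA9 at 39.5, 44.1 and 38.9. Of 22 monocyte and macrophage surface genes counted 12 passed the filter, with a summed level over the list of 488 to 523 CPM untreated and 766 to 834 CPM with ATRA. Some markers of mature monocytes and macrophages had few counts in both groups: CD14 had 8 counts summed over the untreated and 3 over the ATRA libraries, CD68 had 18 and 21, and CYBB, the flavocytochrome of the phagocyte oxidase, had 8 and 5. The strand setting of the counts is not given, so counts of genes that overlap others are uncertain. Few counts alone do not show that an RNA was absent. Of the markers of other cells, NCAM1, a neural and natural killer cell adhesion gene, was present and fell from 133 ± 12.1 to 58.6 ± 3.45 CPM, and PAX5, a B cell factor gene, fell from 67.4 ± 8.67 to 51.2 ± 2.81, a call lost without untreated 3. TRAC, the constant part of the T cell receptor alpha chain, fell from 3.25 ± 0.711 to 0.357 ± 0.230 CPM. Summed over the 3 T and NK cell markers tested, of which NKG7 was not called (called lower with the 6 libraries alone, a replicate block, equal depth or without ATRA 1), the level was between 144 and 168 CPM untreated and between 68.5 and 79.9 CPM with ATRA, most of it NCAM1. The erythroid and megakaryocyte list had 3 members tested and none called. Neutrophil and eosinophil markers, of which 4 were tested, held 3 that rose, CSF3R, CXCR2 and MS4A3. Of 3 fibroblast, endothelial and epithelial markers tested PECAM1 rose (1.27 ± 0.10) and KRT18 fell (−0.55 ± 0.11). The part of other cell types in the results was not tested.

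NRIP1 itself was at 59.7, 58.9 and 53.3 CPM in the untreated and 38.4, 41.1 and 51.9 CPM in the ATRA libraries. Every ATRA value lay below every untreated one, ATRA 3 just under untreated 3, and the change was −0.39 ± 0.12 (adjusted p = 0.0185). The call was lost without untreated 1, without untreated 2, without ATRA 1 and without ATRA 2. NRIP1 was the only one of 24 coregulator genes tested that fell, and NCOA3, a coactivator gene, the only one that rose, from 45.1 ± 1.74 to 80.04 ± 10.03 CPM. Thus 8.33% of the list was called, less than the 28.9% of all genes tested. The corepressor gene NCOR1 was not called (0.05 ± 0.09).

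Of 6 retinoid storage, binding and removal genes tested DHRS3 and CYP26B1 rose and none fell. DHRS3, which reduces retinaldehyde back to retinol, was at 2.71, 3.77 and 4.81 CPM in the untreated and 269, 254 and 251 CPM in the ATRA libraries, a change of 6.04 ± 0.16 (adjusted p = 1.28e-16). CYP26B1, which hydroxylates and so inactivates retinoic acid, went from 5.41, 5.91 and 5.47 to 44.04, 35.8 and 43.5 CPM (2.88 ± 0.13). ALDH1A3, which oxidizes retinaldehyde to retinoic acid, went the other way, from 28.3, 24.3 and 22.04 to 4.51, 4.57 and 3.86 CPM (−2.51 ± 0.22, adjusted p = 1.01e-08). No ATRA value of these genes lay within the untreated range. Of 7 tested genes of retinoid synthesis and uptake, ALDH1A3 among them, DHRS9, a retinol dehydrogenase, rose (1.00 ± 0.12). Besides ALDH1A3, RDH10, the retinol dehydrogenase of the first step, fell (−0.47 ± 0.12). The remaining 4 genes of the first list, CYP2S1, DHRS4, RETSAT and DGAT1, were not called. Of the list members in the count table, 5 of 6 receptors, 7 of 22 synthesis and uptake genes and 6 of 11 storage, binding and removal genes passed the filter.

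No retinoid receptor gene was called higher. RXRA, the partner of all retinoic acid receptors, fell from 256, 263 and 254 to 121, 111 and 112 CPM (−1.17 ± 0.08, adjusted p = 6.78e-10), and RARG fell from 7.63, 10.7 and 11.05 to 4.89, 5.74 and 5.21 CPM (−0.91 ± 0.18). RARA was at 37.6 ± 0.917 and 36.2 ± 2.64 CPM with overlapping libraries, and RXRB at 97.4 ± 1.82 and 97.9 ± 4.28. RARB, in many tissues a direct retinoid target, was near the floor at 0.580, 1.11 and 1.33 CPM untreated and 1.78, 1.49 and 1.64 CPM with ATRA and was not called (0.65 ± 0.34, adjusted p = 0.168).

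**Figure D1:**
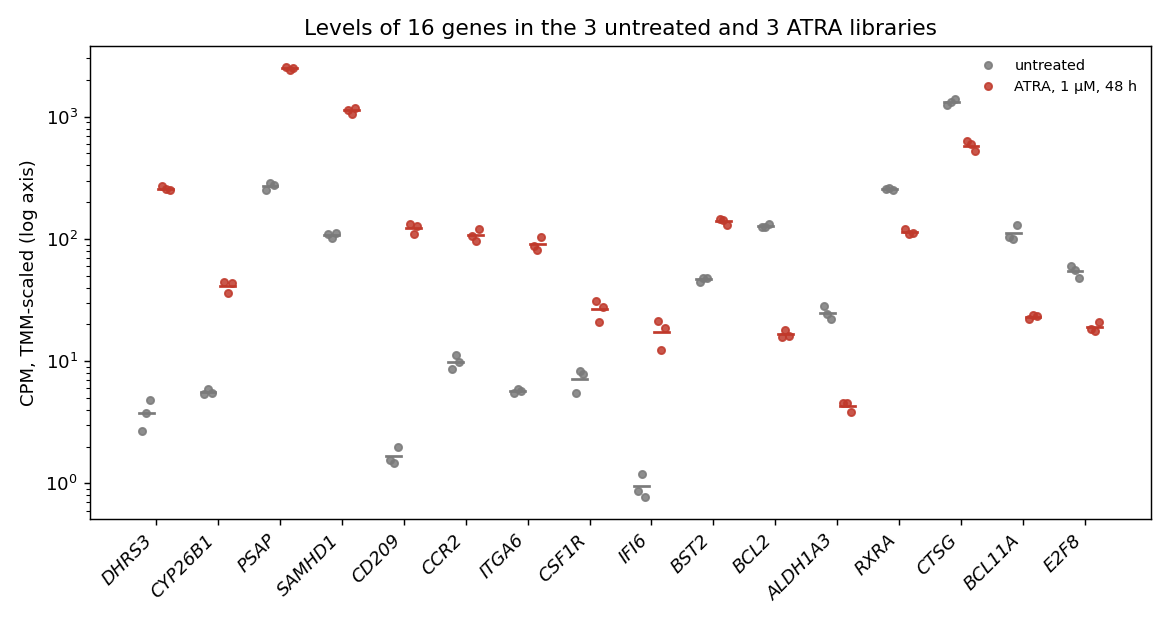
Level of 16 genes in each of the 3 untreated and 3 ATRA libraries, in TMM-scaled CPM on a log axis, with points for libraries and bars for group means. In each of the 16 genes the 3 ATRA points lie apart from the 3 untreated points, as in 45.3% of all genes tested. DHRS3 goes from between 2.71 and 4.81 CPM to between 251 and 269 CPM.

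Across all genes the response was wide. Of 16104 genes tested, 4652 (28.9%) were called, 2529 higher (15.7%) and 2123 lower (13.2%). These shares are the background for every count of list members called, above and below. A low gene can pass the filter through the group in which it is high. Counts of lists with such members describe the members and lend no support to a direction. At least a 2-fold change was called for 1365 genes (8.48%), 783 higher (4.86%) and 582 lower (3.61%), and at least an 8-fold change for 159 higher and 22 lower. In 7301 genes (45.3%) the ATRA libraries did not overlap the untreated ones, so a lack of overlap is common here. The median change of all genes was −0.01, that of genes called higher 0.63 and that of genes called lower −0.58. Genes called higher took 10.9% of the CPM of untreated cells and 18.1% of that of ATRA cells, and genes called lower 17.6% and 13%.

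The balance between higher and lower moved with level and gene type. Among 4026 genes with an untreated level of at most 3.69 CPM, 477 rose and 297 fell at least 2-fold; among the 4026 above 53.4 CPM, 41 rose and 46 fell. Protein-coding genes rose at least 2-fold in 631 and fell in 302 of 11976 cases. Long intergenic noncoding genes went the other way, with 37 higher and 62 lower of 602. Untreated 3 bears on the lower side: it was the highest of the 3 untreated libraries in 40.6% of all genes, in 41.0% of genes at least 2-fold higher and in 71.0% of genes at least 2-fold lower. Without untreated 3, 793 genes rose and 338 fell at least 2-fold, and with the mitochondrial ribosomal RNA share as a term in the fit 837 rose and 361 fell. The part of that library's RNA composition in the fallen genes was not tested beyond these values.

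**Figure D2:**
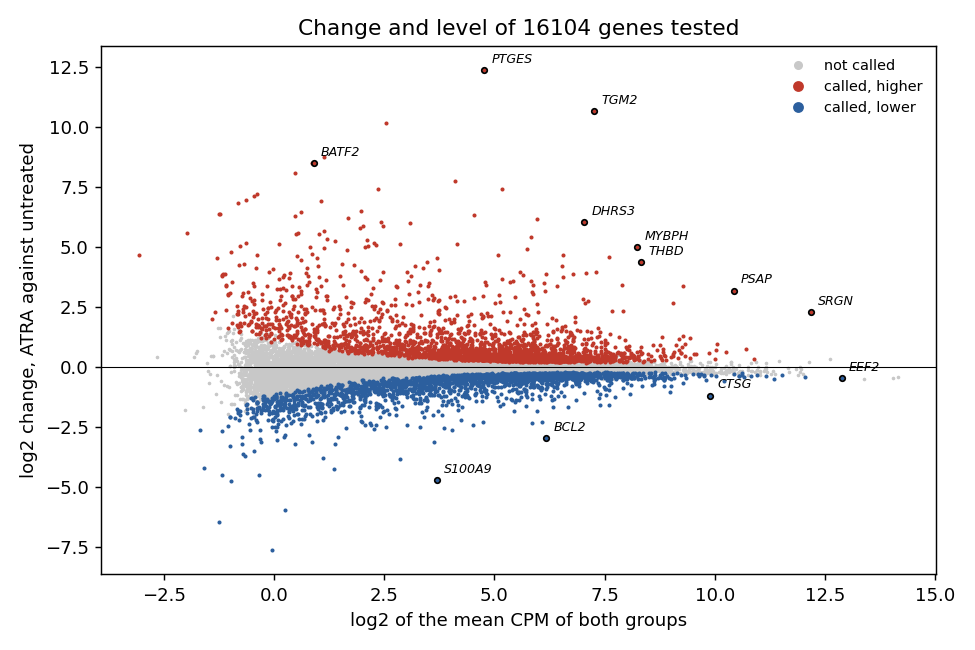
Log2 change with ATRA against log2 of the mean CPM of both groups, 1 point for each of 16104 genes tested, coloured where called. Called genes reach 12.39 (PTGES) upward and lie nearer 0 among the most abundant genes, where EEF2 is at −0.45.

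A few abundant RNAs carried much of the gain. SRGN encodes serglycin, the proteoglycan that packs granule proteins, and went from 1536, 1701 and 1484 CPM in the untreated to 7179.5, 9132 and 6701 CPM in the ATRA libraries (2.29 ± 0.14). PSAP encodes prosaposin, the precursor of the activators of lysosomal lipid breakdown, and went from 253, 288 and 274 to 2529.9, 2406 and 2507 CPM (3.19 ± 0.11, adjusted p = 1.88e-15). SAMHD1, which encodes a hydrolase of deoxynucleotides that limits retroviruses, went from 109.9, 102 and 112 to 1139.8, 1054 and 1179 CPM (3.38 ± 0.09). Together these 3 genes made up 13.4% of the summed CPM gain of all genes called higher, and the 100 genes with the largest gain made up 45.5%. THBD, the endothelial and monocyte thrombomodulin gene, rose from 29.7 ± 1.91 to 614 ± 46.2 CPM, and MYBPH, which encodes a myosin binding protein, from 18.3 ± 0.729 to 586 ± 30.7. CHI3L1, a secreted chitinase-like protein of macrophages, rose from 144 ± 6.17 to 909 ± 64.3 CPM, and FTL, the ferritin light chain, from 1227 ± 49.3 to 2106 ± 187.

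The largest losses in CPM came from the most abundant RNAs and were small as ratios, apart from CTSG. CTSG, the cathepsin G protease of azurophil granules, fell from 1239, 1328 and 1392 to 628, 594 and 521 CPM (−1.18 ± 0.17, adjusted p = 1.78e-05). EEF2, the translation elongation factor, fell from 8995, 8662 and 8388 to 6534, 6579 and 5925 CPM (−0.45 ± 0.13). HNRNPA1 (−0.50 ± 0.11), EIF4B (−0.58 ± 0.10), NPM1 (−0.39 ± 0.12), HSP90AB1 (−0.35 ± 0.11) and GAPDH (−0.33 ± 0.12) followed, RNA-binding, translation, nucleolar, chaperone and glycolysis genes in that order. The call was lost for GAPDH without any 1 of the 6 libraries, for HSP90AB1 and NPM1 without untreated 1, untreated 2, ATRA 1 or ATRA 3, and for EEF2 without ATRA 3. Many ribosomal protein and translation genes have processed copies elsewhere in the genome, so their counts are uncertain to that extent.

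In all, 16 genes went from at most 3 counts over the untreated libraries to at least 2 CPM in each ATRA library, and 1 pseudogene did the reverse. BATF2, a basic leucine zipper factor of interferon-activated macrophages, had no count untreated and 3.75, 4.57 and 2.89 CPM in the ATRA libraries, at least 49.7-fold higher taking 3 counts in the untreated libraries together as the floor. CHST15, a sulfotransferase of chondroitin sulfate chains, had none and 2.29, 2.76 and 3.28 CPM, at least 36.1-fold higher. HCAR2, the receptor of niacin and butyrate, had 1 count untreated and 154 with ATRA, a ratio of 174 (95% counting interval 30.8 to 6914). EPSTI1, an interferon-inducible gene, had 1 and 111 counts, a ratio of 125 (22.04 to 4996). SLC26A11, a sulfate and anion transporter gene, had 1 and 102 counts, a ratio of 115 (20.2 to 4594). That each ATRA library held the RNA of these genes follows from the rule that chose them. PTGES, the prostaglandin E synthase gene, was at 54.7, 55.6 and 53.5 CPM in the ATRA libraries against no count, NGFR, a neurotrophin receptor gene, at 11.8, 9.03 and 14.2 and CCL2, a monocyte chemokine gene, at 4.89, 4.14 and 4.14. TGM2, the transglutaminase long used as a retinoid marker, had 7 counts untreated and was at 313, 253 and 351 CPM with ATRA.

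Chemoattractant receptors guide monocytes along gradients of chemokines and other signals. CCR2, the receptor of CCL2, was at 8.70, 11.3 and 9.78 CPM untreated and 107, 96.9 and 121 CPM with ATRA (3.44 ± 0.15), and CCR1 at 13.2, 11.7 and 10.4 and 108, 91.6 and 111 (3.15 ± 0.12). CX3CR1, the fractalkine receptor gene, rose from 18.5 ± 1.21 to 42.7 ± 6.04 CPM, and CMKLR1, the chemerin receptor gene, from 0.116 ± 0.0434 to 2.94 ± 0.816. Of 29 chemoattractant receptors counted 17 passed the filter, and of these 11 rose and 3 fell, against 15.7% of all genes called higher and 13.2% called lower. A low gene that passed the filter through the ATRA libraries alone had to differ, so this count lends no support of its own. The 3 that fell, named after their values were seen, were CXCR4, which holds cells in marrow, from 50.8, 67.6 and 63.3 to 36.9, 34.3 and 33.9 CPM (−0.79 ± 0.15), S1PR3 (−0.97 ± 0.27) and CXCR6 (−2.07 ± 0.61), the last not called without untreated 3, ATRA 1 or ATRA 2. Among 8 chemokine genes tested, CCL2, CXCL16, CCL5, CCL24 and CCL23 rose and CCL28 fell, the last a call lost without untreated 2, ATRA 1 or ATRA 2.

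Growth factor and cytokine receptors rose at 16 of 24 tested and fell at 1, with a median of 0.64. Over all genes tested 15.7% were called higher and 13.2% lower. CSF1R, the receptor through which monocytes survive and mature, went from 5.51, 8.31 and 7.79 to 31.3, 21.04 and 27.95 CPM (1.89 ± 0.16, adjusted p = 7.2e-09). CSF3R, the granulocyte growth factor receptor, went from 56.1, 56.99 and 66.8 to 162, 132 and 157 CPM (1.33 ± 0.13). IFNAR2, a chain of the type I interferon receptor, went from 18.6, 17.7 and 16.4 to 45.3, 41.2 and 45.4 CPM (1.33 ± 0.10). All 3 rose with no overlap between groups, which 45.3% of all genes tested showed in 1 direction or the other. IL12RB1 (1.47 ± 0.12) and IL7R (1.61 ± 0.15) also rose, while IL6R fell (−0.35 ± 0.08) and FLT3, a growth factor receptor of progenitors, was not called (0.09 ± 0.08). KIT, the stem cell factor receptor gene, rose from 0.557 ± 0.362 to 4.07 ± 0.601 CPM (2.95 ± 0.41).

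Adhesion genes rose at 13 of 18 tested and none fell, with a median of 0.45. ITGA6, the laminin-binding alpha 6 chain, went from 5.51, 5.91 and 5.75 to 87.3, 80.9 and 104 CPM (3.98 ± 0.12), and ITGB7, a beta chain of gut-homing integrins, from 5.80, 4.37 and 5.47 to 70.6, 58.6 and 70.9 CPM (3.68 ± 0.13). The alpha chains of the myeloid beta 2 integrins, ITGAX (CD11c) and ITGAM (CD11b), rose by 2.71 ± 0.26 and 1.38 ± 0.11. The common beta 2 chain ITGB2 rose by 0.44 ± 0.09, ICAM1 by 1.11 ± 0.11, and ITGB1, ITGAL and ITGAV were not called.

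Among 22 dendritic cell genes counted, 10 passed the filter, of which 7 rose and 1 fell. CD209, the lectin DC-SIGN of dendritic cells and macrophages, went from 1.55, 1.46 and 1.99 to 133, 111 and 129 CPM (6.17 ± 0.23), CLEC10A, a lectin of conventional dendritic cells, from 0.386, 0.0857 and 0.110 to 10.7, 11.05 and 11.2 (5.88 ± 0.37), and CD1D, which presents lipids to natural killer T cells, from 5.80, 6.86 and 8.07 to 180.3, 177 and 191 (4.69 ± 0.12). CD1C had 2 counts untreated and 105 with ATRA, a ratio of 59.3 (95% counting interval 16.01 to 496), and CD1A 3 and 52, a ratio of 19.6 (6.34 to 98.0). FSCN1, the actin bundler of mature dendritic cells, fell from 244, 234 and 227 to 101, 97.9 and 87.2 CPM (−1.30 ± 0.08), and BATF3, a factor of cross-presenting dendritic cells, was not called (−0.25 ± 0.17). Since a low gene passes the filter through the group in which it is high, these counts describe the members and lend no support to a direction.

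Of the 12 monocyte and macrophage surface genes that passed the filter 10 rose and 1 fell, and the same limit holds for this count. SIGLEC1, a sialic acid receptor of macrophages, rose from 0.239 ± 0.127 to 8.18 ± 1.76 CPM (5.00 ± 0.41), LILRB1 from 3.34 ± 0.638 to 23.1 ± 1.77, LILRB4 from 26.4 ± 3.42 to 95.3 ± 7.25 and TREM2, a lipid-sensing receptor, from 1.31 ± 0.412 to 8.10 ± 0.485. FCGR1A, the high-affinity Fc receptor, fell from 28.6, 27.6 and 28.1 to 16.1, 18.9 and 16.002 CPM (−0.73 ± 0.14, adjusted p = 0.000297). The leukocyte receptor genes LILRB1 and LILRB4 belong to a family of near-identical copies, as does FCGR1A, so reads may be split among relatives. Of 22 genes of surface proteins studied as leukemia targets 12 rose and 3 fell: CD33 rose from 37.2 ± 3.56 to 64.3 ± 2.95 CPM, CD44, the hyaluronan receptor, fell from 92.6 ± 2.22 to 56.4 ± 4.07, and CLEC12A fell from 0.953 ± 0.104 to 0.195 ± 0.0916. VSIR, the checkpoint ligand VISTA, rose from 32.3, 37.4 and 39.2 to 231, 215 and 248 CPM (2.67 ± 0.10), and 8 of 14 costimulation and checkpoint genes tested rose with none lower.

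**Figure D3:**
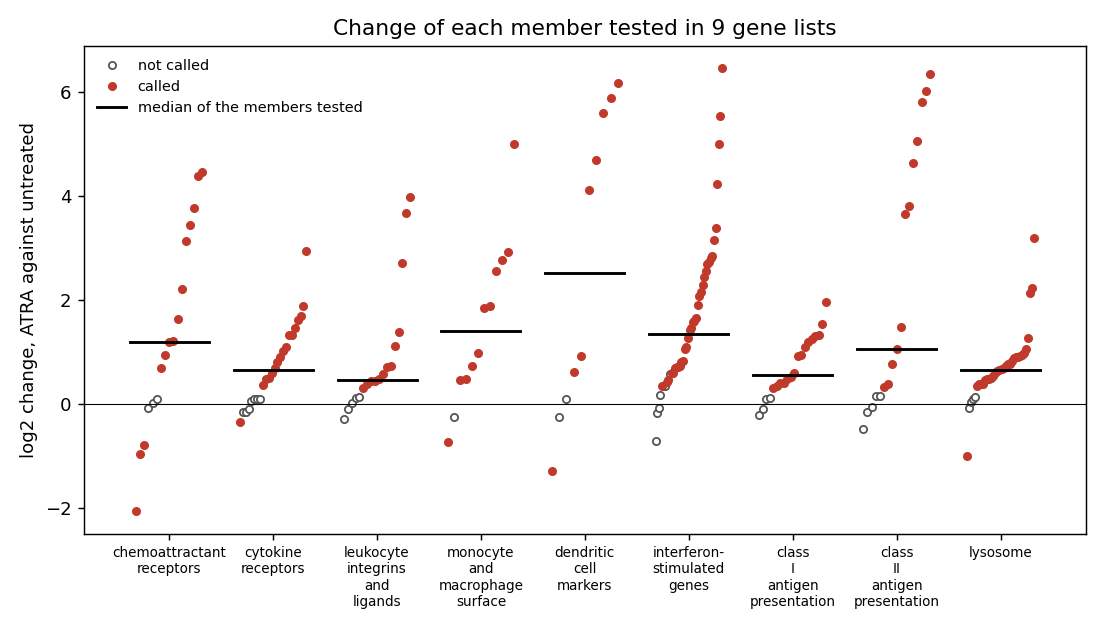
Log2 change of every member tested in 9 gene lists, filled where called, with a bar at the median of the members tested. The interferon-stimulated list spans −0.71 to 6.47 with a median of 1.34, and the lysosome list has a median of 0.66.

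Interferon-stimulated genes rose at 35 of 42 tested and none fell, against 15.7% of all genes called higher. The median was 1.34 against −0.01. Low members such as EPSTI1, with 1 count untreated and 111 with ATRA, passed the filter through groups given ATRA. The count and median therefore describe the members and lend no support to a direction. Type I interferons signal through IFNAR chains to a complex that holds STAT2 and IRF9 and binds interferon-stimulated response elements, while IRF1 is a main factor of the response to interferon gamma. IFI6, a mitochondrial interferon-induced protein gene, went from 0.870, 1.20 and 0.773 to 21.4, 12.3 and 18.7 CPM (4.23 ± 0.26), OAS2, a sensor of double-stranded RNA, from 1.93, 1.37 and 2.43 to 21.5, 9.88 and 20.5 (3.15 ± 0.31), and BST2, tetherin, from 44.3, 47.9 and 47.9 to 145, 143 and 129.7 (1.57 ± 0.09). In IFI6, OAS2 and IFIT3 (14.3, 8.82 and 12.4 CPM with ATRA) the second ATRA library was the lowest of the ATRA 3 and still above every untreated library. The genes that were not called were MX1 (1.89 ± 0.279 and 1.18 ± 0.184 CPM), HERC5, HERC6, IFITM2, USP18, ISG20 and RIGI, named after their values were seen. IRF1 rose from 33.3, 33.7 and 34.7 to 134, 133 and 136 CPM (1.98 ± 0.08), and STAT2 from 40.7 ± 3.95 to 65.3 ± 5.66, while IRF7 (0.35 ± 0.15) was not called. IRF9 was at 0.193, 0.0857 and 0.994 CPM untreated and 1.40, 0.637 and 0.675 CPM with ATRA and was not called (0.93 ± 0.58), but without untreated 3, the highest of the untreated libraries, it rose by 2.71.

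Promoters of 5 genes are shown to set the sequence beside these values, each 250 bases before to 50 after the start in RefSeq (GRCh38.p14), 5′ to 3′ on the gene's strand, with the matches of the motif named for each gene in capitals. IFI6 and HERC5 both hold 3 response elements (GAAA, then any 2 bases, then a further GAAA, searched on both strands) but only IFI6 rose; BATF2 and CTSA hold a direct repeat of the letters retinoid receptors bind; HLA-DMB, a class II gene, holds a CCAAT box. The IFI6 promoter also holds 1 CCAAT box, left in lower case.
IFI6: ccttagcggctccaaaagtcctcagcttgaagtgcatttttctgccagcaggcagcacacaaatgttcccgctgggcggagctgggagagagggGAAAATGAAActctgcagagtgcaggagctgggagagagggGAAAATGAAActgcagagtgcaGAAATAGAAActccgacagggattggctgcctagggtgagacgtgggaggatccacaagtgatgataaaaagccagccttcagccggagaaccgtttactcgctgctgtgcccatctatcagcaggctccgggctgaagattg
HERC5: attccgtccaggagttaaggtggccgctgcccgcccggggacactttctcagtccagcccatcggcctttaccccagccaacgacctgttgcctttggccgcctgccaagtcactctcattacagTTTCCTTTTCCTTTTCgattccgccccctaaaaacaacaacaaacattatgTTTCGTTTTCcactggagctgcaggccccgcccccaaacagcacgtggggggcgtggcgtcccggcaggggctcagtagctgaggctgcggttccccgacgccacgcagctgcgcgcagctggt
BATF2: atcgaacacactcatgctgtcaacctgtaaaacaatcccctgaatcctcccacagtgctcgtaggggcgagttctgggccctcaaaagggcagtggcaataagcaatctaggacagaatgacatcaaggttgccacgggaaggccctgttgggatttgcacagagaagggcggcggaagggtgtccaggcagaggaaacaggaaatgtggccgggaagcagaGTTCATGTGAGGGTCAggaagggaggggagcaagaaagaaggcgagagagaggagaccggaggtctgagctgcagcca
CTSA: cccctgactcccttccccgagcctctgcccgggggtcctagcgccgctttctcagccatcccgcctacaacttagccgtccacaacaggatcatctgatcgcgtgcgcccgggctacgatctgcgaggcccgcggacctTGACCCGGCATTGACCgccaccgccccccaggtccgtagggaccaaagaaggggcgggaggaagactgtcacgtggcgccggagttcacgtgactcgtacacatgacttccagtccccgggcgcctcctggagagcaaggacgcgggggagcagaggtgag
HLA-DMB: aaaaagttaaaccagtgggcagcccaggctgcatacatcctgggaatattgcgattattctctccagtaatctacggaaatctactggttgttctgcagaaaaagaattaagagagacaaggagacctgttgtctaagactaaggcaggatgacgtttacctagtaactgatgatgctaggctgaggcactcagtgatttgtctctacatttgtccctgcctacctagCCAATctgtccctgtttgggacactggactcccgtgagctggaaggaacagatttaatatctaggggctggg
IFI6 lies at chr1:27672143-27672442 on the minus strand, HERC5 at chr4:88456869-88457168 on the plus strand, BATF2 at chr11:64990228-64990527 on the minus strand, CTSA at chr20:45891085-45891384 on the plus strand and HLA-DMB at chr6:32940979-32941278 on the minus strand. The matches of IFI6 begin between −156 and −93 from the start, those of HERC5 between −125 and −74, that of BATF2 at −28, that of CTSA at −111 and that of HLA-DMB at −22. Only 1 start per symbol was searched, and other starts of a gene were not. The BATF2 start used lies inside the annotated gene (64987943 to 64997045), not at its outer end. In HERC5 and CTSA the matches are on the opposite strand, so the capitals show the reverse complement, and neighbouring matches of HERC5 share bases. None overlapped a match to another motif searched. HERC5 was at 16.2, 18.3 and 14.3 CPM untreated and 15.5, 13.3 and 14.2 CPM with ATRA with overlapping libraries (−0.17 ± 0.14).

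Of the 16097 genes tested that have a symbol, 10648 matched a RefSeq promoter. The response element was found in 3.07% of these, in 35 of 488 genes at least 2-fold higher (7.17%), in 6 of 284 at least 2-fold lower (2.11%), in 24 of 35 interferon-stimulated genes (68.6%), in 9 of 16 class I genes (56.2%) and in none of 14 class II genes. A direct repeat of the type retinoid receptors bind (GGTCA or GTTCA, then any 6 bases, then GGTCA or GTTCA again, on both strands) was found in 15 of 10648 promoters (0.141%), and BATF2 and CTSA were the only holders among the 488 genes at least 2-fold higher. The same pieces with 3 bases between them were found in 15 of 10648 promoters, and PRADX, named after its match was seen, was the only holder among the 488. A CCAAT box (CCAAT, both strands) was found in 36.7% of all promoters and in 10 of 14 class II genes. A match describes letters in this window and shows no binding, and a gene without a match may be controlled from elsewhere.

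Genes of both arms of antigen presentation were called higher. For class I, which shows peptides from inside the cell, 16 of 20 genes tested rose and none fell, with a median of 0.56: HLA-B went from 331, 372 and 362 to 914, 908 and 820.1 CPM (1.31 ± 0.11), the immunoproteasome subunit gene PSMB10 from 28.8 ± 2.39 to 61.1 ± 2.93 and the peptide transporter gene TAP1 from 39.1 ± 1.90 to 73.4 ± 5.70. B2M, the light chain, rose by 0.60 ± 0.12. For class II, which shows peptides taken up from outside, 12 of 17 rose and none fell, with a median of 1.05: HLA-DRA went from 0.676, 0.429 and 0.552 to 43.7, 44.3 and 48.6 CPM (6.35 ± 0.26), CD74, its chaperone, from 73.7, 80.5 and 78.01 to 234, 205 and 210.4 (1.49 ± 0.11), and CIITA, the master activator, from 27.3, 26.997 and 24.3 to 57.1, 48.98 and 56.01 (1.05 ± 0.10). Of the promoter-binding subunit genes RFX5 rose by 0.31 ± 0.08 and RFXANK was not called (0.16 ± 0.09). A low class II gene such as HLA-DRA, at 0.429 to 0.676 CPM untreated, passes the filter through groups given ATRA. The class II count therefore describes the members and lends no support to a direction. HLA genes are highly alike, so the split of reads among them is uncertain. Guanylate-binding protein genes GBP4, GBP5, GBP2 and GBP3 rose, GBP4 from 0.133 ± 0.146 to 8.03 ± 0.622 CPM.

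Lysosomal genes rose at 28 of 34 tested and fell at 1, with a median of 0.66, and the count was between 27 and 28 when any 1 of the 6 libraries was left out. Summed over the list the level was 2382, 2552 and 2489.8 CPM in the untreated and 6046, 5747 and 6039 CPM in the ATRA libraries, PSAP being the largest part. The cathepsin genes CTSD, from 15.9, 19.5 and 19.9 to 90.6, 80.003 and 91.6 CPM (2.23 ± 0.14), CTSL, from 10.5, 11.2 and 10.2 to 49.9, 43.99 and 46.8 (2.14 ± 0.16), and CTSA, whose promoter is shown above, from 51.98, 58.3 and 67.5 to 155, 130.5 and 147 (1.28 ± 0.10), led the rest. The membrane protein genes LAMP1 and LAMP2 rose by 0.60 ± 0.08 and 0.93 ± 0.08, and TFEB, the factor known for switching on lysosomal genes, from 41.5 ± 4.05 to 70.7 ± 2.26 CPM. CTSH alone fell (−1.01 ± 0.25), and the proton pump genes ATP6V1A and ATP6V1B2 were not called.

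Granule and microbicidal genes split. Of 15 azurophil and specific granule genes tested 9 rose and 4 fell. BPI, which binds bacterial endotoxin, went from 4.06, 3.69 and 2.71 to 108, 98.9 and 105 CPM (4.94 ± 0.14, adjusted p = 2.3e-16), PRTN3, proteinase 3, from 658, 714 and 755 to 1458, 1431 and 1329 (0.99 ± 0.13), and ELANE, neutrophil elastase, from 883, 1001 and 988 to 1534, 1588 and 1339.8 (0.64 ± 0.12). MPO, myeloperoxidase, fell from 152, 148 and 159.9 to 98.6, 86.1 and 84.9 CPM (−0.77 ± 0.14), and LYZ, lysozyme, from 205 ± 20.4 to 124 ± 6.15 (−0.72 ± 0.18). Thus serine protease genes of the same granule, CTSG on one side and PRTN3 and ELANE on the other, moved in opposite directions in all 3 ATRA libraries. The calprotectin gene S100A9 fell from 25.4, 25.8 and 23.8 to 1.21, 0.850 and 0.675 CPM and its partner S100A8 from 14.98, 14.7 and 11.3 to 1.14, 0.531 and 1.06.

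Of the phagocyte oxidase, NCF1 went from 15.9, 15.9 and 17.7 to 262, 261 and 234 CPM (3.93 ± 0.13), with the caution that it has near-identical pseudogenes. CYBA rose by 0.54 ± 0.13 and NCF4 by 0.30 ± 0.10, whereas CYBB stayed at the floor in both groups. Of 7 oxidase genes tested 5 rose, CYBC1, an assembly factor gene, among them, and 3 were called without untreated 1, without untreated 2 or without ATRA 1. Complement genes C3, from 3.41 ± 0.581 to 23.5 ± 2.20 CPM, and CFP, properdin, from 0.292 ± 0.167 to 9.63 ± 0.976, rose, and C1QA had 2 counts untreated and 54 with ATRA, a ratio of 30.5 (95% counting interval 8.04 to 258). The tyrosine kinase gene FGR rose from 3.38, 4.54 and 4.92 to 54.4, 47.8 and 51.8 CPM (3.55 ± 0.20), and FYN fell from 3.24 ± 0.283 to 0.688 ± 0.143 (−2.24 ± 0.37).

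Among sensors of microbes, 7 of 18 Toll-like receptor and adaptor genes tested rose and 2 fell, 1 without untreated 2, untreated 3, ATRA 2 or ATRA 3. A low member such as TLR5 passed the filter through groups given ATRA, so this count describes the members. CD180, a Toll-like receptor relative, rose from 4.32 ± 0.520 to 24.99 ± 4.33 CPM, and TLR5, the flagellin receptor gene, had 3 counts untreated and 152 with ATRA, a ratio of 57.2 (95% counting interval 19.2 to 281). TLR4, the endotoxin receptor gene, rose from 0.579 ± 0.192 to 2.27 ± 0.654 CPM and TLR2 fell from 12.9 ± 2.61 to 7.07 ± 1.65. Of 23 NF-kB genes 11 rose and 1 fell: BCL3 rose from 1.37 ± 0.401 to 9.49 ± 2.27 CPM, RELB by 0.99 ± 0.16, and TNFAIP3, the A20 feedback inhibitor, fell by 0.73 ± 0.15, while the subunit gene RELA was not called (0.20 ± 0.08). JAK2 rose by 0.81 ± 0.12, and SOCS3, the feedback inhibitor, from 4.67 ± 0.543 to 10.9 ± 1.51 CPM, among 9 of 21 genes of this pathway that rose, while STAT3 alone fell (−0.34 ± 0.08).

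Of 27 myeloid transcription factor genes tested 11 rose and 5 fell. SPI1, encoding PU.1, went from 178, 173 and 176 to 290.0, 264 and 241 CPM (0.59 ± 0.08), CEBPA from 629, 658 and 567 to 972, 879.8 and 839 (0.54 ± 0.10) and IRF8, a factor of the monocyte lineage, from 458, 451 and 405 to 823, 802 and 750.0 (0.85 ± 0.09). None of these overlapped between groups, as for 45.3% of all genes tested. CEBPE, a factor of late granulocytes that retinoids raise in promyelocytic cells, was low, at 0.870, 0.857 and 0.718 CPM untreated and 2.61, 0.956 and 2.51 CPM with ATRA (1.36 ± 0.44, adjusted p = 0.0254), a call lost without untreated 2, untreated 3, ATRA 1 or ATRA 3. CEBPD (−0.57 ± 0.13), ZEB1 (−0.97 ± 0.19) and LMO4 (−0.77 ± 0.10) fell, and GFI1 was not called (−0.10 ± 0.07). SMAD3, which carries TGF-beta signals, rose from 17.2, 14.3 and 16.8 to 90.6, 74.5 and 92.9 CPM (2.42 ± 0.12).

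Progenitor factor genes fell at 7 and rose at 3 of 17 tested. BCL11A went from 104, 101 and 131 to 22.1, 23.7 and 23.3 CPM (−2.28 ± 0.11, adjusted p = 8.9e-13), MYC from 568, 579.8 and 492 to 387, 385 and 348 (−0.55 ± 0.09) and RUNX1 from 275, 263 and 306 to 196, 195 and 213 (−0.49 ± 0.09). RUNX2 and RUNX3 rose, by 1.10 ± 0.11 and 0.87 ± 0.09, so the 3 RUNX genes moved in different directions. MYB, the progenitor oncogene, was at 388, 390.2 and 347 CPM untreated and 373, 364 and 389 with ATRA (0.00 ± 0.08) and was not called.

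HOX and MEIS genes are known targets of KMT2A fusion proteins. Among 14 HOX, MEIS and PBX genes tested 4 were called (28.6%), against 28.9% of all genes. PBX3 (−0.54 ± 0.08), HOXA9, from 39.5, 44.1 and 38.9 to 29.8, 31.3 and 31.3 CPM (−0.41 ± 0.11), and HOXA10 (−0.28 ± 0.10) fell, and MEIS1 was not called (−0.23 ± 0.09, adjusted p = 0.0712). Without ATRA 1 only PBX3 of the 3 that fell was called, and of the fits with 1 library left out only that without untreated 3 called HOXA10. Of 20 genes of the fusion machinery 8 fell and 2 rose. Among those that fell were KMT2A itself, from 53.3, 56.7 and 69.8 to 41.1, 36.4 and 44.1 CPM (−0.57 ± 0.14), DOT1L (−0.35 ± 0.08) and PSIP1 (−0.46 ± 0.10), while MEN1, encoding menin, was not called (0.12 ± 0.09). Of those that rose 1 was called without untreated 1, untreated 2 or ATRA 2 and none without untreated 3.

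The survival gene BCL2 fell from 126, 126 and 132 to 15.9, 18.1 and 16.2 CPM (−2.94 ± 0.11, adjusted p = 5.48e-15). MCL1, its relative on which myeloid cells also depend, rose from 229, 233 and 199 to 322, 328 and 337 CPM (0.58 ± 0.09), and the effector gene BAK1 from 42.8 ± 0.849 to 71.9 ± 5.68. In all, 8 of 17 BCL2 family genes tested rose, 4 without untreated 2 and 5 without ATRA 1, and BCL2 alone fell. Of 27 p53 target genes 13 rose and FAS fell; TP53I3 rose from 4.78 ± 0.428 to 50.98 ± 1.61 CPM and GDF15 from 0.401 ± 0.0242 to 14.2 ± 1.99, while MDM2 was not called (0.26 ± 0.10) but was with the 6 libraries alone, DESeq2, no filter, a replicate block or the mitochondrial ribosomal RNA term.

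Genes of DNA replication fell at 21 of 36 tested and none rose, against 13.2% of all genes called lower, with a median of −0.29. UHRF1, which keeps methylation through replication, went from 427, 410.3 and 399 to 254, 243 and 219 CPM (−0.79 ± 0.08), CDT1, the licensing factor gene, from 183, 183 and 179 to 126, 118 and 112 (−0.61 ± 0.10), and MCM4, a helicase subunit gene, from 593, 581 and 546 to 413, 423 and 433 (−0.44 ± 0.10). PCNA, the sliding clamp gene, was at 239 ± 16.5 and 227 ± 14.4 CPM and was not called. The number that fell was 11 without untreated 1, 13 without ATRA 1 and 12 without ATRA 3. Mitosis genes fell at 10 of 31 tested and none rose, MKI67 (−0.47 ± 0.12) and CENPF (−0.51 ± 0.10) among those that fell, with CDK1 at −0.28 ± 0.14 and not called (called lower with the 6 libraries alone, a replicate block or the mitochondrial ribosomal RNA term); 5 fell without untreated 1 and 18 with the mitochondrial ribosomal RNA term. E2F8, a repressor of cell cycle genes, went from 60.4, 55.9 and 48.3 to 18.3, 17.5 and 21.1 CPM (−1.53 ± 0.13), CDK6 from 481, 479 and 465 to 270.5, 276 and 314 (−0.73 ± 0.11), and the inhibitor gene CDKN1A from 257, 234 and 237 to 404, 389.8 and 359.6 (0.66 ± 0.09). CDKN1C, another inhibitor gene, rose from 0.424 ± 0.131 to 2.65 ± 0.686 CPM, as did CCND3 (0.36 ± 0.08).

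Replication histone genes, whose messages lack poly(A) tails, fell at 17 of 24 tested, H2AC6 rose, a call lost without untreated 1 or ATRA 3, and the median was −0.88. Their summed level was 239, 326 and 404 CPM in untreated 1 to 3 and 203, 228 and 188 CPM in ATRA 1 to 3. Untreated 3, which also had the highest mitochondrial ribosomal RNA share, was the highest, and untreated 1 lay near the ATRA libraries. H4C3 showed the same order with 15.8, 20.3 and 26.4 CPM untreated and 8.58, 10.5 and 8.77 CPM with ATRA (−1.19 ± 0.19). Without untreated 3, 10 fell; the part of that library's RNA composition in the rest was not tested. Histone genes are near-identical copies, so their separate counts are uncertain.

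Ribosome genes shifted little. Of 34 ribosome biogenesis genes 12 fell and none rose, with a median of −0.19, FBL, fibrillarin, from 604 ± 11.4 to 427 ± 40.6 CPM. The number that fell was 5 without untreated 1, 7 without untreated 2, ATRA 1 or ATRA 2, 4 without ATRA 3, and 19 with the mitochondrial ribosomal RNA term. Of the 46 cytosolic ribosomal protein genes on the list, which is partial, 8.7% were called, less than the 28.9% of all genes tested. RPS2, RPSA, RPL22 and RPL14 fell, 1 without untreated 3 and none without untreated 1, untreated 2, ATRA 1 or ATRA 3, against 26 with that term. RPL12, which the list does not hold, was also called lower (−0.37 ± 0.12). The summed level of the 46 genes was between 84826 and 91395 CPM untreated and between 68562 and 84046 CPM with ATRA, without overlap, ATRA 2 being the highest of the ATRA libraries. Genes of the integrated stress response and amino acid supply, which ATF4 governs, fell at 15 and rose at 4 of 27 tested, with a median of −0.40: SLC7A11, the cystine carrier, went from 58.5, 68.2 and 67.95 to 24.1, 24.97 and 26.8 CPM (−1.36 ± 0.17), PHGDH, the first enzyme of serine synthesis, from 248, 235 and 235 to 133, 135 and 114 (−0.91 ± 0.12) and ATF4 from 522 ± 16.1 to 394 ± 26.1, a call lost without ATRA 3. WARS1, a tRNA synthetase gene that interferon gamma also raises, went against the list, from 162, 155 and 153 to 353, 321 and 344 CPM (1.12 ± 0.08).

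**Figure D4:**
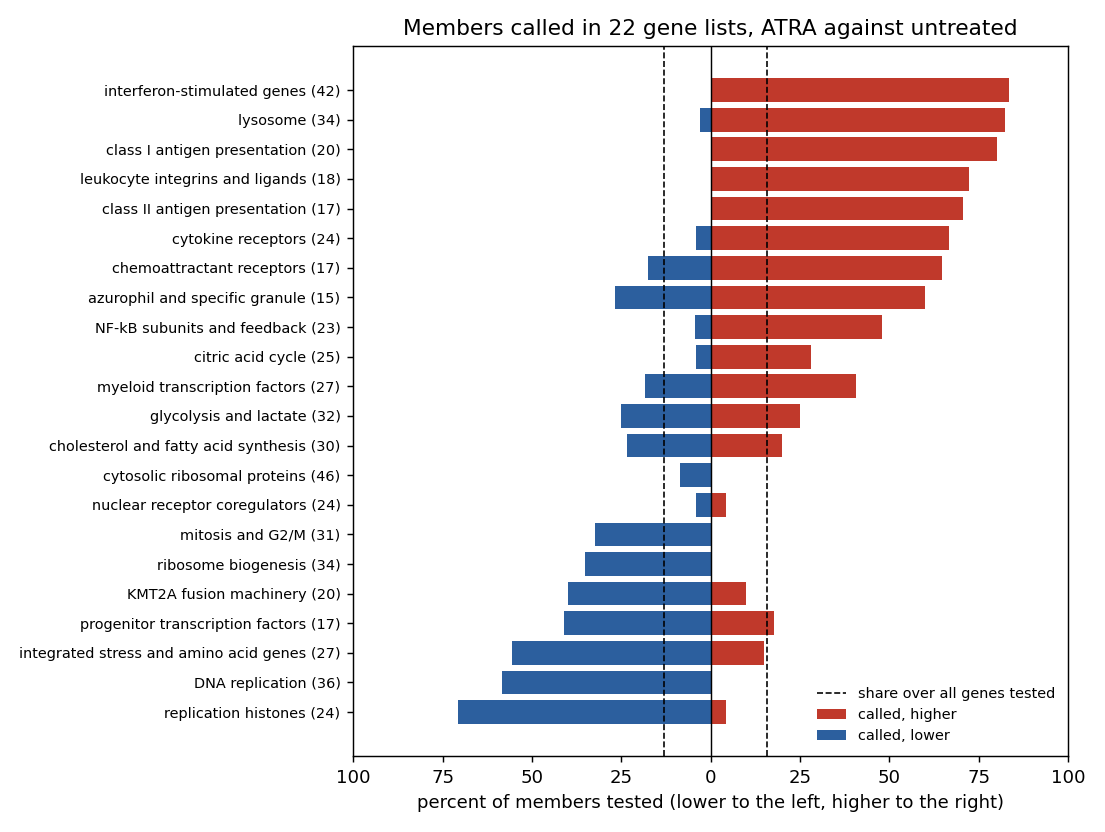
Percent of the members tested that were called higher (right) or lower (left) in 22 gene lists, with the number tested in brackets; dashed lines mark the shares over all genes tested, 15.7% higher and 13.2% lower. Interferon-stimulated and lysosomal genes lie at the top and replication histones at the bottom.

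Of 32 genes of glycolysis and lactate 8 rose and 8 fell, with a median of 0.02, and 5 fell without untreated 1, untreated 2, ATRA 2 or ATRA 3. SLC2A5, the fructose carrier gene, went from 16.04, 13.7 and 16.3 to 384, 328 and 398 CPM (4.59 ± 0.14, adjusted p = 3.22e-16), while SLC2A3, a glucose carrier gene, fell from 101, 110.4 and 110.2 to 66.1, 60.03 and 65.5 (−0.74 ± 0.09) and SLC2A1 was not called (0.14 ± 0.10). TXNIP, a brake on glucose uptake, rose from 114 ± 6.07 to 250.5 ± 12.99 CPM and its relative ARRDC4 from 3.29 ± 0.360 to 10.98 ± 1.04, both known targets of the factor that MLXIPL encodes, itself at 12.7, 9.14 and 9.06 CPM with ATRA against 2 counts untreated. LDHA, lactate dehydrogenase A, fell from 752 ± 75.5 to 482 ± 22.8 CPM. In the citric acid cycle 7 of 25 rose, 3 without untreated 3 and 4 without ATRA 2, and IDH1 led with 90.9, 94.02 and 82.2 CPM untreated and 179.8, 182 and 177 with ATRA (1.01 ± 0.09).

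Of 25 genes that burn fatty acids 12 rose and 1 fell, the carnitine carrier SLC25A20 from 7.08 ± 0.272 to 14.996 ± 0.324 CPM and CPT2 from 32.9 ± 3.06 to 48.8 ± 3.08, with HADH the one that fell (−0.50 ± 0.10). Synthesis of sterols and fatty acids split into 6 higher and 7 lower of 30: ELOVL6 rose from 1.26 ± 0.322 to 5.18 ± 0.580 CPM and SQLE by 0.71 ± 0.08, while SCD fell from 1049.6 ± 45.5 to 728 ± 46.6 and FASN by 0.43 ± 0.08. Without ATRA 3, 4 of that list fell. Of 24 NRF2 target and heme genes 12 rose and PRDX1, a peroxidase gene named after its value was seen, fell (−0.32 ± 0.09), a call lost without untreated 1, ATRA 2 or ATRA 3. ALAS1, the first enzyme of heme synthesis, rose from 68.2, 66.1 and 63.6 to 134, 136 and 137 CPM (1.04 ± 0.09), HMOX1, which breaks heme down, from 0.462 ± 0.301 to 1.85 ± 0.302, FTH1, ferritin heavy chain, by 0.56 ± 0.09 and TFRC, the transferrin receptor, by 0.45 ± 0.11. CD38, which consumes NAD at the cell surface, went from 13.04, 15.2 and 13.4 to 189.7, 199 and 232 CPM, BST1, its relative, from 6.46 ± 0.711 to 16.9 ± 2.11, and NAMPT, the salvage enzyme that makes NAD, fell by 0.47 ± 0.12.

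Among long noncoding genes with a symbol, PTPRN2-AS1 rose from 0.773, 1.03 and 1.05 to 35.02, 34.1 and 34.5 CPM (5.14 ± 0.19), and LINC00639 fell from 22.1, 20.5 and 23.5 to 2.29, 3.19 and 2.22 (−3.12 ± 0.25). LINC03014 (3.77 ± 0.47) and LINC02766 (3.28 ± 0.37) also rose. HMGA2-AS1, at 2.71, 4.46 and 8.67 CPM in untreated 1 to 3, LINC01238, at 5.22, 5.14 and 10.7, and MIR181A1HG, at 1.35, 1.80 and 3.26, fell, each highest in untreated 3. Long intergenic and antisense genes that fell at least 2-fold were highest in untreated 3 among the untreated libraries in 78.0% of cases, the part of which was not tested. HLA-DQB1-AS1 (3.35 ± 0.45), ITGA6-AS1 (2.99 ± 0.49) and SLC7A11-AS1 (−2.09 ± 0.33) moved the same way as the genes they overlap or neighbour, and without strand their reads cannot be told apart.

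Called genes also lay side by side. Runs of at least 4 neighbouring tested genes, all called in 1 direction, numbered 105 (60 higher, 45 lower) and held 476 genes; how many runs this share of called genes would give was not estimated. On chromosome 1, positions 158179947 to 159055155, CD1D, CD1A, CD1C, MNDA and IFI16 rose with a pair of unnamed genes, MNDA least at 0.34 ± 0.11 and not called without untreated 2, untreated 3 or ATRA 2. On chromosome 21, positions 33229901 to 33480011, the receptor genes IFNAR2, IL10RB, IFNAR1 and IFNGR2 rose together with readthrough and divergent transcripts and TMEM50B, IL10RB not without untreated 1, untreated 2 or ATRA 1. On chromosome 10 a run of 6 genes with SLC29A3, CDH23, VSIR, PSAP and CHST3 rose (positions 71319258 to 72013564), and so did LIPA with IFIT2, IFIT3, IFIT1 and IFIT5 (89213569 to 89421001). TGM2 stood at the head of a run with KIAA1755, BPI and LBP on chromosome 20, positions 38127387 to 38377023. The longest run, 9 genes on chromosome 7 from NSUN5 to STX1A (73302517 to 73719672), rose by 0.38 to 7.44 and holds MLXIPL as its largest change; STX1A was not called without untreated 1, untreated 2 or ATRA 1. Runs that fell held 8 genes from SCHIP1 to TRIM59 on chromosome 3 (159839861 to 160485773), with SMC4, a condensin gene, at −0.77 ± 0.08, and 8 on chromosome 9 with IARS1 and ASPN (92210207 to 92620533). In the last, ASPN (1.06, 1.63 and 3.37 CPM in untreated 1 to 3) and ECM2 (2.03, 2.14 and 5.03) were highest in untreated 3, and ECM2 was not called without it. IARS1 was not called without untreated 1, ATRA 1 or ATRA 2.

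The same ATRA exposure was given to cells with the shRNA induced, in libraries that share none with the comparison above. Among these, DOX 3 was shallow, with 2685984 counts and 19017 genes detected. ATRA 2, the smallest library of the comparison above, had 9512481 counts and 24148 genes detected. The part of this low depth in the numbers called with DOX was not tested. Of 16104 genes tested, 3054 (19.0%) were called between the combined and DOX groups. Of the 2529 genes that rose with ATRA alone, 2399 (94.9%) had the same sign there and 1372 were called in that direction; of the 2123 that fell, 1952 (91.9%) had the same sign and 878 were called. For genes at least 2-fold higher the median change was 1.75 without and 1.35 with DOX, and for those at least 2-fold lower −1.42 and −0.83. These genes were chosen by the first value of each pair and not by the second. Over all genes the changes correlated with Pearson's r = 0.826 and Spearman's rho = 0.649 (n = 16104 genes, which are not independent, in 12 libraries of 1 line). The difference itself was called for 43 genes (0.267%), 36 of them (0.224%) with a lower value under DOX and 7 (0.0435%) with a higher one. Without DOX 1 the split was 333 lower and 414 higher, and with no filter on low counts 112 lower and 77 higher.

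Among the genes described above, the ATRA rise was smaller with DOX for HLA-DRA (6.35 without and 3.68 with DOX), HLA-DQB1 (3.82 and 1.19), CCR2 (3.44 and 2.25), CD1D (4.69 and 3.72), ITGA6 (3.98 and 3.09) and SAMHD1 (3.38 and 2.54). For each of these genes the mean level was higher with DOX than untreated, and lower in the combined than in the ATRA group. The fall was smaller for BCL2 (−2.94 and −2.12), BCL11A (−2.28 and −1.55) and S100A9 (−4.70 and −2.79). Mean CPM of BCL11A was 111.7 untreated, 23.05 with ATRA, 70.63 with DOX and 24.09 combined, so its levels differed mainly without ATRA. In the same order BCL2 was at 127.9, 16.71, 92.55 and 21.46 CPM, and S100A9 at 24.99, 0.911, 31.66 and 4.23. DHRS3 (6.04 and 6.08), THBD (4.37 and 4.49), SLC2A5 (4.59 and 4.83) and ALDH1A3 (−2.51 and −2.61) are given for comparison, and their differences were not called. The number of genes whose difference was called moved with single libraries: it was 747 without DOX 1, 129 without combined 1, 23 without ATRA 1, 21 without combined 2, 16 without untreated 2 or untreated 3, 11 without untreated 1 and 10 without ATRA 3.

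**Figure D5:**
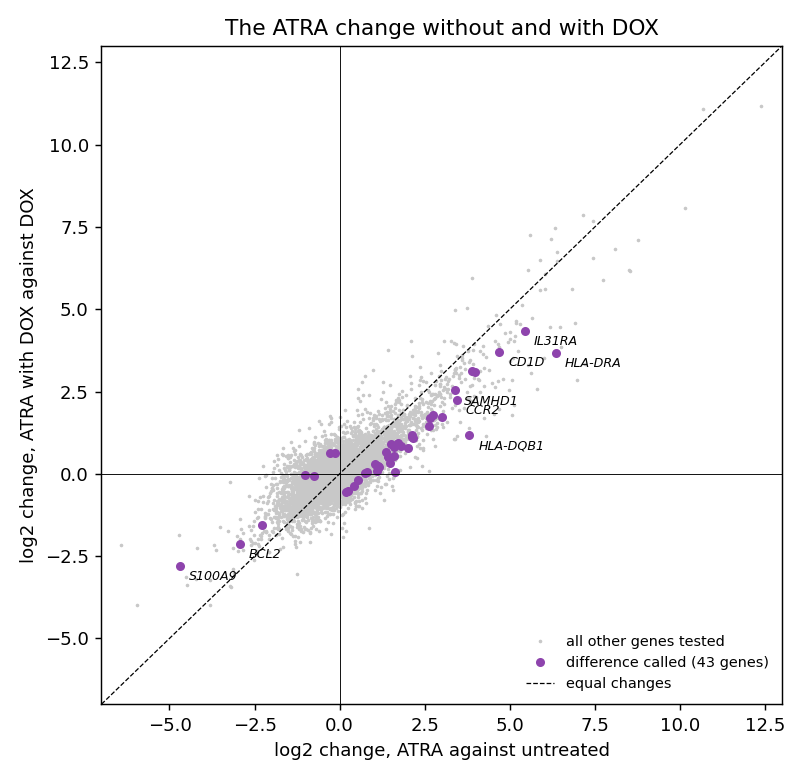
Log2 ATRA change with DOX (combined against DOX, vertical) against that without DOX (ATRA against untreated, horizontal) for 16104 genes, with the 43 genes whose difference was called in purple and a dashed line of equal changes. Most purple points that rose lie under the line, HLA-DQB1 at 3.82 without and 1.19 with DOX.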

How the data were processed

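RNA of 12 MOLM14 cultures was sequenced as paired ends. The authors deposited raw counts per gene identifier in 1 table, made with FastQC, STAR, HTSeq and GRCh38 per the submitters' processing notes; versions, annotation release and strand setting are not given in the sources used here. Of 61487 identifiers, 61369 were paired with a symbol, and positions and gene types came from GENCODE release 29. Columns were assigned to samples by their labels.

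Counts were filtered with filterByExpr by group, scaled by TMM and fitted in 1 model of 4 group means with edgeR 4.0.16 (R 4.3.3, limma 3.58.1), whose quasi-likelihood test was adjusted by Benjamini-Hochberg over all 16104 genes. The standard error is the change divided by the root of the F statistic. In simulated counts 67 genes were changed 1.5-fold, 67 2-fold and 66 4-fold, each drawn from genes at a mean of at least 2 CPM, with 15824 genes tested. The test recovered 64.2%, 88.1% and 100% of them, and 4 unchanged genes were called. Far more genes were called in the data. The simulation therefore gives neither the share of false calls there nor the recovery of lower genes. Counting intervals are exact at 95% and cover counting error only; reads carry no molecular identifiers. No pair of libraries within the untreated group or within the ATRA group agreed within sampling noise. Pairs across these groups were not compared in this way.

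The comparison, its gene lists and tests were chosen with earlier results of these data known. Genes named are the 12 largest called changes each way among genes reaching 2 CPM, the 12 largest CPM gains and losses, up to 5 members per list with the smallest adjusted p and its defining genes, the 5 largest changes each way of noncoding genes, genes in runs, and retinoid genes; other genes were chosen after their values were seen. Alternatives were RLE and library size scaling, other filters, the 6 libraries alone, thinning to equal depth, a replicate block, the mitochondrial ribosomal RNA share as a covariate, DESeq2 1.42.0 and leaving out each library. Python 3.11.15 was used for summaries and figures. Some genes of the lists are not reported here by name.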

Additional observations from a re-analysis of the deposited data

Results flagged for a closer look

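The ATRA effect differed between cells with and without DOX, by edgeR's test of the difference (adjusted p under 0.05), for 16 genes named above. Over all genes only 10 differences were called without ATRA 3 and 11 without untreated 1. Some of these 16 therefore lost the call in those fits. The log2 effect with DOX minus that without was −2.67 ± 0.52 for HLA-DRA, −2.63 ± 0.36 for HLA-DQB1, −1.15 ± 0.16 for CD74 and −0.76 ± 0.14 for CIITA, the class II genes. Among surface and receptor genes it was −1.19 ± 0.22 for CCR2, −1.08 ± 0.22 for IL7R, −1.02 ± 0.19 for MS4A3, −0.98 ± 0.17 for CD1D, −0.89 ± 0.17 for ITGA6 and −0.77 ± 0.16 for CD38. It was −0.98 ± 0.20 for CHI3L1, −0.93 ± 0.14 for TXNIP and −0.84 ± 0.12 for SAMHD1. The genes that fell with ATRA had positive differences, 1.91 ± 0.36 for S100A9, 0.82 ± 0.15 for BCL2 and 0.74 ± 0.16 for BCL11A. Such a difference compares changes and not levels with ATRA. BCL11A was at a mean of 23.05 CPM with ATRA and 24.09 CPM in the combined group. DOX itself and the induced shRNA cannot be told apart in this contrast.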

How the results depend on the processing

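The count of genes called between ATRA and untreated cells was 3974 with DESeq2 and between 3455 and 4006 with 1 library left out, and that of genes changed at least 2-fold between 1131 and 1502; every alternative stayed within 1.5 times of the full counts. The share of 2-fold calls that were higher was 57.4%, against 70.1% without untreated 3 and 69.9% with the mitochondrial ribosomal RNA term. The 43 genes whose ATRA effect differed with DOX became 24 with library size scaling, 189 with no filter, 15 at equal depth and 111 with DESeq2, and between 10 and 747 with 1 library left out; the cause was not tested. With a replicate block 4677, 1364 and 54 genes were called in these tests; same-numbered libraries deviated with r between −0.028 and 0.068, so the numbers were not taken as pairs. Among 5 genes that were not called, signs near 0 turned: MYB was −0.0029 with RLE, −0.0051 with a filter at 1 CPM, −0.0028 with the 6 libraries alone, −0.0076 at equal depth, −0.0101 with the mitochondrial term and −0.0549 to 0.0286 with 1 library left out. DGAT1 was −0.0127 at equal depth and RXRB −0.0179 with the mitochondrial term; with 1 library left out DGAT1 was −0.0794 to 0.149, IFITM2 −0.205 to 0.0136, RETSAT −0.0334 to 0.0801 and RXRB −0.0135 to 0.056. Of 234 called genes named above, 25 lost the call under some alternative and none changed sign. Of those not called, CDK1, IRF7, IRF9, MDM2, MEIS1 and NKG7 gained a call under some alternative.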
